A study of Mus musculus with 6 samples.

Results

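Osr1, Osr2, Twist1, Twist2, Prrx1 and Prrx2 are 3 pairs of related transcription factor genes, and they were examined here by name among the 23594 genes measured in the forming root furcation of the mouse molar. The 6 genes were selected on values from these same 6 libraries, namely their levels and their differences between genotypes in an earlier reading of the counts, so those differences are given as a description, and where a threshold of the fit over all genes is named for them it is no independent test. The RNA came from apical tissue in the furcation development region (FDR), the area under the crown where the roots divide, cut by laser out of mandibular first molars of C57BL/6 mice at PN4.5. The control group (3 libraries, labelled wild type) consisted of littermates, and the Lhx6-/- group (3 libraries) carried the Lhx6-CreER knock-in allele on both chromosomes, which disrupts Lhx6, the gene of a LIM homeobox transcription factor. Each library combined the captured tissue of several molars, and mice of both sexes were used in the study.

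Osr1 and Osr2 are odd-skipped related proteins that bind DNA through zinc fingers, and in the jaw Osr2 is known to limit where teeth form, acting against the Bmp4-Msx1 loop of the dental mesenchyme. Twist1 and Twist2 (also called Dermo1) are basic helix-loop-helix factors that bind DNA as dimers with each other or with E proteins, and they are known for holding mesenchymal and bone-forming progenitors back from maturation. Prrx1 and Prrx2 are paired-related homeobox factors of the craniofacial and limb mesenchyme. All these genes are best known from mesenchyme, the loose precursor tissue of connective tissue, bone and tooth pulp.

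The members of each pair are close relatives, so their coding sequences were compared first, to see whether sequencing reads could be assigned to the wrong partner. The longest identical stretch is given in capitals with the flanking bases in lower case, from the annotated mouse coding sequence (mm10, GENCODE vM21) and numbered from the first base of the start codon.
Osr1 coding bases 587 to 649: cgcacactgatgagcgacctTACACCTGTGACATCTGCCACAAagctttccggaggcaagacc
Osr2 coding bases 578 to 640: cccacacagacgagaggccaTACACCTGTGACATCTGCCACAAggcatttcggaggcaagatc
Twist1 coding bases 383 to 445: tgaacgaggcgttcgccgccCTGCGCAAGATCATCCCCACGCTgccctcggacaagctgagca
Twist2 coding bases 245 to 307: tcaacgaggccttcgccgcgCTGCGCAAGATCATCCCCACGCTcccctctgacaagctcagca
Prrx1 coding bases 633 to 691: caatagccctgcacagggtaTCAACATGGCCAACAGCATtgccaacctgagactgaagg
Prrx2 coding bases 639 to 697: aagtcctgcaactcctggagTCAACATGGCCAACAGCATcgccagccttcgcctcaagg
The identical runs were 23 bases long in the Osr pair, 23 in the Twist pair and 19 in the Prrx pair, all shorter than the 75-base reads. Over aligned positions without gaps, the coding sequences were 69.6% identical for Osr1 and Osr2, 84.2% for Twist1 and Twist2 and 68.9% for Prrx1 and Prrx2. No 75-base word of Osr1, Osr2, Twist1, Prrx1 or Prrx2 transcripts occurred in a transcript of any other annotated gene. For Twist2, 1403 of 3100 such words (45.3%) occurred in reverse in Gm29100, an annotated antisense RNA that shares 1477 exonic bases with it. Whether the counting used strand is not given in the sources used here, so reads over that stretch cannot be told apart and the Twist2 values are uncertain to that extent. Gm29100 itself was assigned 0.643, 0.778 and 0.964 counts per 1000000 (CPM) in the control libraries (here and later in the order of replicates 1, 2 and 3) and 0.507, 1.09 and 0.632 CPM in the Lhx6-/- libraries, and its groups overlapped.

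The libraries held 60132323 to 76157433 estimated counts. Lhx6, read first as a check of the labels, had 27.8, 18.2 and 21.9 CPM in control and 12.8, 9.82 and 10.5 CPM in Lhx6-/- libraries, a log2 fold change of -1.04 (standard error 0.16), with every Lhx6-/- library below every control library. All 10 dental mesenchyme markers and all 6 markers of enamel-forming cells were detected in every library, so RNA of both tissues was present. Of the 10 mesenchyme markers, 9 had a log2 fold change above 0, with a median of 0.07 over the list. By edgeR 3 of them had an unadjusted p under 0.05, all higher in Lhx6-/- tissue (4.75% of all tested genes). Groups were apart in 4, all with Lhx6-/- higher (7.86% of all tested genes). The 12 dental epithelium markers were lower in Lhx6-/- tissue in 12 of 12 cases, and their summed level was 1440 to 2200 CPM in control and 1070 to 1230 CPM in Lhx6-/- libraries. In such bulk tissue, a different number of cells of a type and a different amount of RNA per cell cannot be told apart.

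All 6 factors passed the filter on low counts, and all 6 had a higher mean in Lhx6-/- than in control tissue, by log2 fold changes of 0.18 to 1.18 with a median of 0.31, beside a median of -0.002 over all 20114 genes tested. The difference was 1.95-fold for Osr2 and 2.27-fold for Twist2, was 1.33-fold for Prrx2, and was 1.13- to 1.15-fold for Osr1, Twist1 and Prrx1. Osr2 and Twist2 had an adjusted p under 0.05 by edgeR's quasi-likelihood test, a rule met by 81 of all tested genes (0.403%) and in the same direction by 65 (0.323%), and they were also the 2 members with at least 1.5-fold change and an unadjusted p under 0.05, a rule met in that direction by 317 genes (1.58%). These shares are printed as the background of a list picked for its values, and nothing is read from the comparison. In 5 of the 6 genes the lowest Lhx6-/- library exceeded the highest control library, which was so for 1580 of all tested genes (7.86%).

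**Figure D1:**
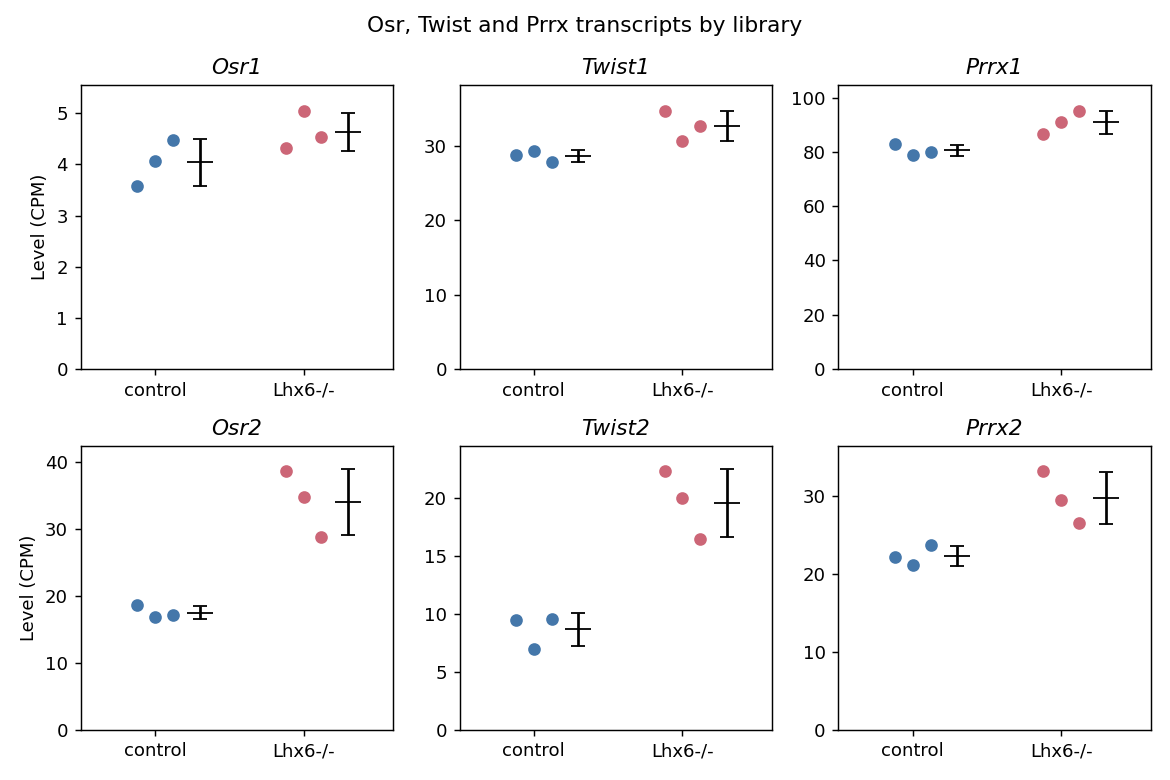
Level of each factor in counts per 1000000 (CPM, vertical axis from 0) in the 3 control and 3 Lhx6-/- libraries; points are libraries in replicate order, and the bar beside them is the mean with 1 SD. The groups stand apart most widely for Osr2 and Twist2, are separate by a narrow gap for Twist1 and Prrx1, and overlap for Osr1.

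Osr2 (chr15:35296098-35303305, plus strand, mm10) encodes the zinc finger factor that restrains tooth formation lingual to the molar row. It was measured at 18.6, 16.8 and 17.1 CPM in the control libraries and at 38.6, 34.8 and 28.8 CPM in the Lhx6-/- libraries. The control libraries lay close together, the Lhx6-/- libraries were spread over a 1.34-fold range, and the lowest Lhx6-/- library was 1.55 times the highest control library. The control mean was 17.5 ± 0.986 CPM and the Lhx6-/- mean 34.0 ± 4.95 CPM (SD, n = 3 each), a 1.95-fold difference (log2 fold change 0.96, standard error 0.11).

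Osr1 (chr12:9570116-9581500, plus strand) encodes the paralogue, which is known for its role in the heart, kidney and other mesenchyme. It was the scarcest of the 6 genes and was measured at 3.57, 4.07 and 4.48 CPM in control and 4.32, 5.05 and 4.54 CPM in Lhx6-/- libraries. Its groups overlapped, since Lhx6-/- replicate 1 lay below control replicate 3. The log2 fold change was 0.20 with a standard error of 0.18, so the difference was about the size of its error. These levels rest on 222 to 376 estimated counts per library.

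Twist2 (chr1:91801461-91848028, plus strand) showed the largest fold change of the 6. Its level was 9.49, 7.00 and 9.52 CPM in control and 22.3, 20.0 and 16.5 CPM in Lhx6-/- libraries. The groups were well apart, with the lowest Lhx6-/- library at 1.74 times the highest control library. The means were 8.67 ± 1.45 CPM (SD, n = 3) and 19.6 ± 2.92 CPM (SD, n = 3), a 2.27-fold difference (log2 fold change 1.18, standard error 0.15). Gm29101, an RNA annotated on the same strand inside the Twist2 intron and looked up after the Twist2 values were seen, had 0.643, 0.853 and 1.42 CPM in control and 2.6, 2.95 and 1.40 CPM in Lhx6-/- libraries. Its groups overlapped because of Lhx6-/- replicate 3, its log2 fold change was 1.25 (standard error 0.38), and its adjusted p was 0.263 by edgeR with Benjamini-Hochberg adjustment.

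Twist1 (chr12:33957671-33959829, plus strand), the gene whose loss closes skull sutures early, was more abundant and differed little. It was measured at 28.8, 29.3 and 27.8 CPM in control and 34.7, 30.7 and 32.6 CPM in Lhx6-/- libraries. The groups did not overlap, but only by a factor of 1.05 between the nearest libraries. The log2 fold change was 0.19 (standard error 0.08).

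The stretch of 150 bases before the start of Twist1 and of Twist2 is shown because the partners differ in how far they moved, with matches to the 4 short motifs searched in capitals (RefSeq promoter table, GRCm38.p6, plus strand, chr12:33957521-33957670 and chr1:91801311-91801460).
Twist1 upstream: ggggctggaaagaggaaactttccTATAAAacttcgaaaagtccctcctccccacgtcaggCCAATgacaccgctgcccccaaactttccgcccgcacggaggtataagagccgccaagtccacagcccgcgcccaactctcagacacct
Twist2 upstream: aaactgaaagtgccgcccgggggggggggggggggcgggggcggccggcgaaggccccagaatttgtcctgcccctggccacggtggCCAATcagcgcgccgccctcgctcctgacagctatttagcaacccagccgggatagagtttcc
The motifs, searched on both strands from 250 bases before to 50 after the start, were TAATTA (a core bound by many homeobox factors), CANNTG (the E-box of basic helix-loop-helix factors), TATAAA and CCAAT, and none of these overlaps another in the matches found. The table held promoters for 4 of the 6 genes, namely Twist1, Twist2, Prrx1 and Prrx2. Twist1 had TATAAA starting at position -126 and CCAAT at -89, Twist2 had CCAAT at -63, Prrx1 had TAATTA at -173, and Prrx2 had no match. The Prrx1 window (chr1:163313601-163313900) and the Prrx2 window (chr2:30845117-30845416) belong to start sites inside the gene spans given below. These start sites are not the first transcribed bases of those spans. CANNTG was found in none of the 4 windows. Among 32851 mouse promoters of the same length, TAATTA occurred in 5.29%, CANNTG in 72.3%, TATAAA in 13.6% and CCAAT in 37.4%. These matches describe letters only.

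Prrx2 (chr2:30834972-30881251, plus strand) stood between these extremes. It had 22.1, 21.1 and 23.7 CPM in control and 33.1, 29.4 and 26.5 CPM in Lhx6-/- libraries. The groups were apart, by 1.12-fold between the nearest libraries. The means were 22.3 ± 1.30 CPM (SD, n = 3) and 29.7 ± 3.34 CPM (SD, n = 3), a 1.33-fold difference (log2 fold change 0.41, standard error 0.10), and neither rule was met.

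Prrx1 (chr1:163245119-163313710, minus strand) collected the most counts of the 6 genes. Its level was 82.8, 78.9 and 80.1 CPM in control and 86.7, 91.2 and 95.2 CPM in Lhx6-/- libraries. All Lhx6-/- libraries were above all control libraries, again by a factor of only 1.05 between the nearest. The log2 fold change was 0.18 (standard error 0.07).

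**Figure D2:**
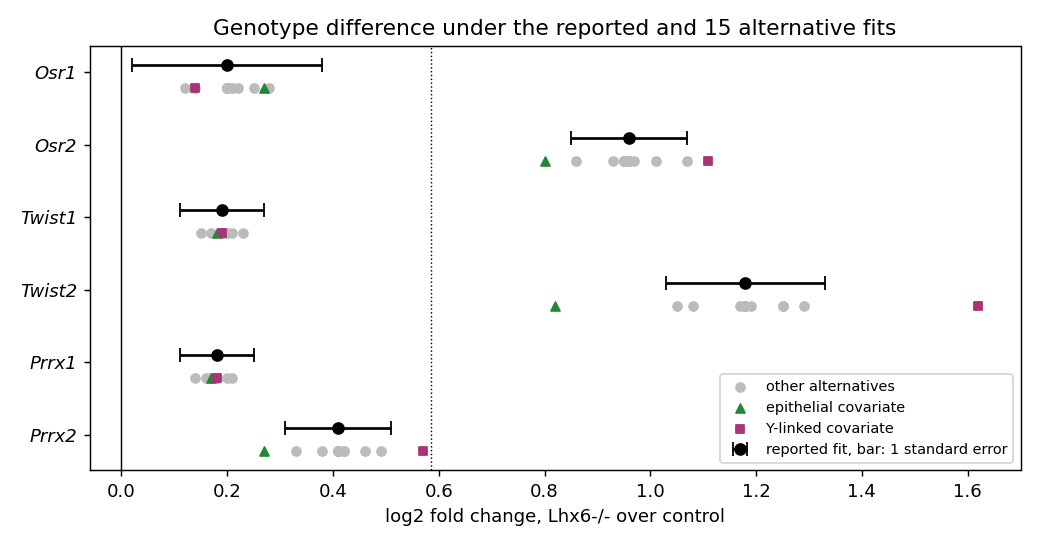
Log2 fold change of Lhx6-/- over control for each factor: black points are the reported edgeR fit with 1 standard error, and the points under them are the 15 alternative fits, with the fits that hold the level of epithelial or of Y-linked markers constant drawn apart. The solid line is no difference and the dotted line 1.5-fold. All fits lie above 0, those of Osr2 and Twist2 lie beyond the dotted line, and the 2 marker fits spread Twist2 from 0.82 to 1.62.

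Since the partners of each pair share a sequence family, the ratio of the partners within each library was also described. The log2 ratio of Osr2 to Osr1 in CPM was 2.38, 2.04 and 1.93 in control and 3.16, 2.79 and 2.66 in Lhx6-/- libraries. That of Twist2 to Twist1 was -1.60, -2.06 and -1.55 in control and -0.63, -0.62 and -0.98 in Lhx6-/- libraries. In both pairs the groups did not overlap, so the balance lay further toward Osr2 and toward Twist2 in every Lhx6-/- library, by mean differences of 0.75 and 1.0 on the log2 scale. For Prrx2 over Prrx1 the values were -1.91, -1.90 and -1.76 in control and -1.39, -1.63 and -1.85 in Lhx6-/- libraries, and the groups overlapped.

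**Figure D3:**
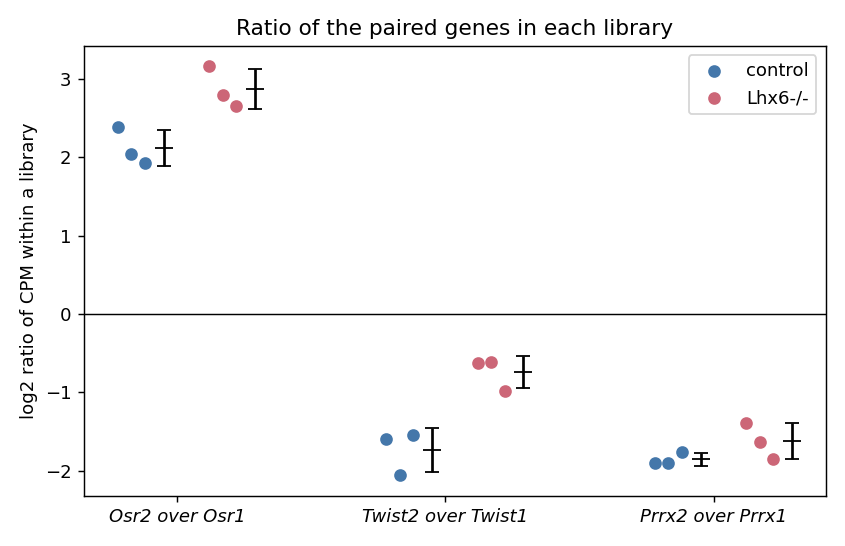
Log2 ratio of the CPM of the partners within each library; points are the 3 control and 3 Lhx6-/- libraries, bars are the mean with 1 SD, and the line at 0 marks equal CPM. The groups are separate for Osr2 over Osr1 and Twist2 over Twist1 and overlap for Prrx2 over Prrx1. The ratio is not corrected for transcript length, so only its change between groups can be read.

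The order of the 6 factors by level was read per length, as CPM per kilobase of annotated exon (RPKM). Where genes of a list are called most abundant, mean CPM without a correction for length is meant. In control tissue the order was Twist1 at 17.6 ± 0.451 RPKM, Prrx2 at 11.4 ± 0.661, Prrx1 at 7.28 ± 0.180, Osr2 at 4.82 ± 0.272, Twist2 at 2.73 ± 0.456 and Osr1 at 1.96 ± 0.222 RPKM (SD, n = 3 libraries). No neighbours in this order overlapped in their libraries. In Lhx6-/- tissue Osr2, at 9.40 ± 1.37 RPKM, stood beside Prrx1, at 8.23 ± 0.386 RPKM, and these genes overlapped in their libraries, while no other neighbours did. The others kept their places, with Twist1 at 20.1 ± 1.20, Prrx2 at 15.1 ± 1.70, Twist2 at 6.19 ± 0.920 and Osr1 at 2.24 ± 0.181 RPKM. When the longest coding transcript replaced the union of exons, the control order was the same, but Prrx2 (20.6 RPKM), Twist1 (20.1 RPKM) and Osr2 (19.8 RPKM) overlapped in Lhx6-/- tissue, so the upper places depend on the length used.

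**Figure D4:**
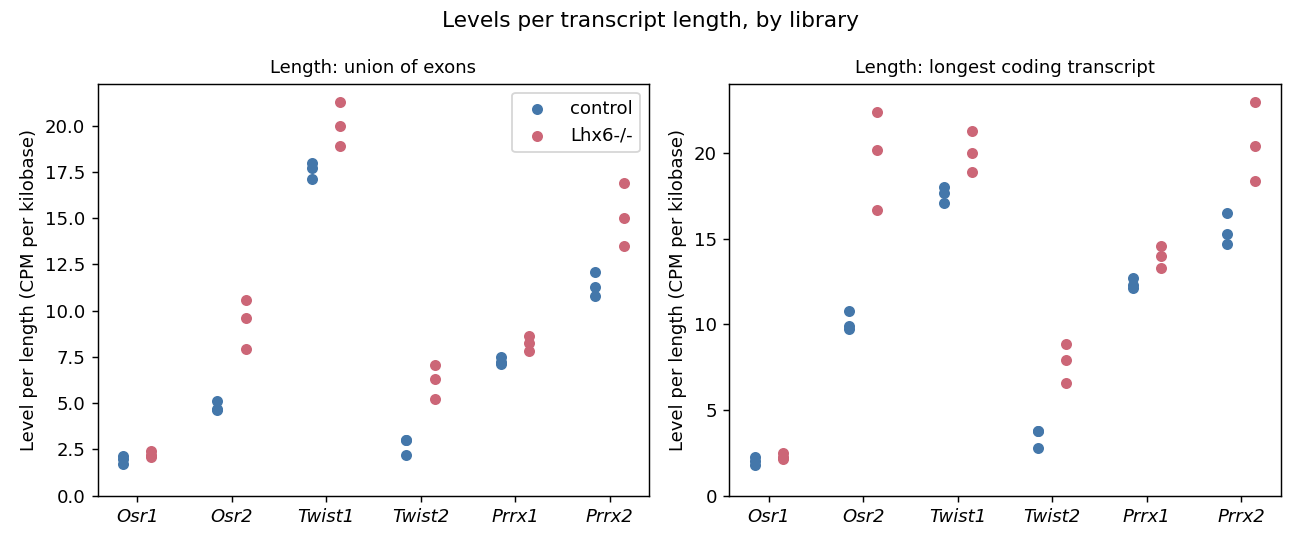
Level per transcript length of each factor (CPM per kilobase, vertical axis from 0) in each library, with the length taken as the union of annotated exons on the left and as the longest coding transcript on the right. Twist1 is highest and Osr1 lowest in control on both scales, while Osr2 sits at 9.40 RPKM in Lhx6-/- tissue on the left and 19.8 RPKM on the right.

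Across the 6 libraries Osr2, Twist2 and Prrx2 followed each other closely, with Pearson correlations of log2 CPM of 0.98 for Osr2 and Twist2, 0.97 for Twist2 and Prrx2 and 0.96 for Osr2 and Prrx2. Within the Lhx6-/- group the same library, replicate 1, was highest and the same library, replicate 3, lowest in all 3 genes. Osr1 correlated less with the other factors (0.30 to 0.60). These are descriptions over 6 libraries in 2 genotype groups, and a shift between the groups alone raises them.

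The 3 genes with the most similar pattern to each factor were listed from the genes with a mean of at least 5 CPM. For Osr2 they were Nbl1, a secreted BMP antagonist (r = 0.996, 104 CPM in control and 181 CPM in Lhx6-/- tissue), Rarg, a retinoic acid receptor (r = 0.994), and Matn4, a matrilin of the extracellular matrix (r = 0.993). For Twist2 they were Lypd1 (r = 0.997, 3.74 and 15.8 CPM), Emilin3, an elastic fibre glycoprotein (r = 0.996, 13.3 and 26.3 CPM), and Nedd4, a ubiquitin ligase (r = 0.996). For Prrx2 they were Hmbox1 (r = 0.996), Sox11, a transcription factor of progenitor cells (r = 0.995), and Scaper (r = 0.990). For Twist1 they were Gnaq (r = 0.997), Fbn1, the fibrillin of microfibrils (r = 0.993), and Scara5 (r = 0.992). Osr1 was most like Igf2bp2 (r = 0.990), Mlh3 (r = 0.981) and 2310015A10Rik (r = 0.961), and Prrx1 most like Akap11 (r = 0.982), Gm9917 (r = 0.979) and Prrc1 (r = 0.979). With 6 libraries many genes reach such values, and the number above 0.95 was 126 for Twist2, 113 for Osr2, 84 for Prrx2, 53 for Twist1, 28 for Prrx1 and 11 for Osr1.

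Genes known from mouse genetics to act with Osr2 in tooth or palate mesenchyme were read as a list of 13, all tested. Of these, 1 rose, none fell by the rule of 1.5-fold and unadjusted p under 0.05 (3.28% of all tested genes in either direction), and the median log2 fold change was 0.02. Of the 13, 4 had an unadjusted p under 0.05, 3 of them higher in Lhx6-/- tissue (4.75% of all tested genes were higher by it). The groups were apart in 3 genes with Lhx6-/- higher (7.86% of all tested genes) besides 1 with Lhx6-/- lower. In either direction 15.5% of all tested genes were apart. The gene that rose was Sfrp2, a secreted modulator of Wnt signalling, at 146, 102 and 125 CPM in control and 312, 216 and 276 CPM in Lhx6-/- libraries. Its groups were apart and its log2 fold change was 1.11 (standard error 0.17, adjusted p = 0.0429 by edgeR with Benjamini-Hochberg adjustment). Sfrp2 is among the genes the study itself singled out from these libraries, so it is not independent evidence of the direction of the list. Msx1, the homeobox gene of the loop that Osr2 opposes, had 93.4 ± 5.27 CPM in control and 95.1 ± 5.51 CPM in Lhx6-/- tissue (SD, n = 3), a log2 fold change of 0.03. Bmp4, its ligand partner, had 65.0 ± 3.36 and 63.6 ± 6.04 CPM (SD, n = 3), a log2 fold change of -0.03. For both genes the groups overlapped. Pax9, a tooth mesenchyme factor, had 21.0, 16.4 and 20.2 CPM in control and 29.1, 28.4 and 24.5 CPM in Lhx6-/- libraries, with the groups apart and a log2 fold change of 0.51 (adjusted p = 0.102 by edgeR). Msx2, a relative of Msx1, went the other way, with 76.0 ± 2.84 CPM in control and 64.5 ± 5.04 CPM in Lhx6-/- tissue (SD, n = 3; log2 fold change -0.24, adjusted p = 0.284 by edgeR) and the groups apart. Lhx8, a LIM homeobox relative of Lhx6, had 16.0 ± 0.740 and 19.4 ± 0.941 CPM (SD, n = 3; log2 fold change 0.28, adjusted p = 0.315 by edgeR), also with the groups apart. Bmp4, Pax9, Msx2 and Lhx8 were named after their values were seen.

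The E proteins, which are dimer partners of Twist proteins, were read together with the Id proteins as a list of 7. Id proteins bind E proteins and keep them from DNA. None of the 7 met the rule by edgeR, DESeq2 or limma-trend (3.28% of all tested genes met it by edgeR). The median log2 fold change was 0.03. By edgeR 1 gene had an unadjusted p under 0.05, lower in Lhx6-/- tissue (4.75% of all tested genes were higher by it). Groups were apart in the same gene alone (15.5% of all tested genes in either direction). The most abundant were Tcf4, an E protein, at 154 ± 8.96 CPM in control and 162 ± 8.58 CPM in Lhx6-/- tissue, and Id3 at 126 ± 2.28 and 129 ± 5.48 CPM (SD, n = 3). The gene with the unadjusted p under 0.05, named after its values were seen, was Id4, at 27.0 ± 4.26 CPM in control and 21.1 ± 0.762 CPM in Lhx6-/- tissue (SD, n = 3; log2 fold change -0.36, adjusted p = 0.285 by edgeR). Of 10 other factors of the Twist subfamily, 7 were in the table and 6 were tested. None met the rule by edgeR, DESeq2 or limma-trend (3.28% of all tested genes met it by edgeR), and the median was -0.03. None had an unadjusted p under 0.05 by edgeR (4.75% of all tested genes were higher by it). Groups were apart in 1, with Lhx6-/- lower (15.5% of all tested genes in either direction). Hand2, a heart and jaw factor, varied widely among the libraries of a group, at 20.1, 40.6 and 29.7 CPM in control and 28.3, 29.0 and 38.8 CPM in Lhx6-/- libraries, while Scx, the tendon factor, had 5.73 ± 0.538 and 5.44 ± 0.239 CPM (SD, n = 3).

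Of 15 other paired-type homeobox genes, 12 were in the table and 11 were tested, with a median log2 fold change of 0.20. The count under the rule was 0 higher and 1 lower (1.71% of all tested genes were lower by it). The most abundant were Pitx1 at 47.9 ± 3.54 CPM in control and 39.4 ± 2.53 CPM in Lhx6-/- tissue (SD, n = 3; log2 fold change -0.28, adjusted p = 0.250 by edgeR), and Shox2, a mesenchymal factor, at 37.7 ± 3.04 and 45.8 ± 2.65 CPM (SD, n = 3; log2 fold change 0.28, adjusted p = 0.261 by edgeR). Of both genes the groups were apart, in opposite directions, and neither passed the adjusted test.

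Finally, a mixed list of 18 genes was read, made of mesenchymal transcription factors and of genes known to be tied to Twist or Prrx factors. None met the rule by edgeR, DESeq2 or limma-trend, 5 had an unadjusted p under 0.05, all of them higher in Lhx6-/- tissue (4.75% of all tested genes), and 14 of the 18 had a log2 fold change above 0, with a median of 0.11. Groups were apart in 8 of the 18, all with Lhx6-/- above control (7.86% of all tested genes in that direction, 15.5% in either). Vim, the mesenchymal intermediate filament, had 984 ± 20.5 CPM in control and 1070 ± 7.69 CPM in Lhx6-/- tissue (SD, n = 3; log2 fold change 0.12), and Tnc, a matrix glycoprotein, had 940 ± 31.2 and 923 ± 32.2 CPM (SD, n = 3; log2 fold change -0.03). Those with an unadjusted p under 0.05, named after their values were seen, were the transcription factors Snai1 (log2 fold change 0.35), Zeb1 (0.19) and Foxc2 (0.57) and the PDGF receptors Pdgfra (0.26) and Pdgfrb (0.48), and their adjusted p ranged from 0.0955 for Pdgfrb to 0.509 for Zeb1 by edgeR.

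**Figure D5:**
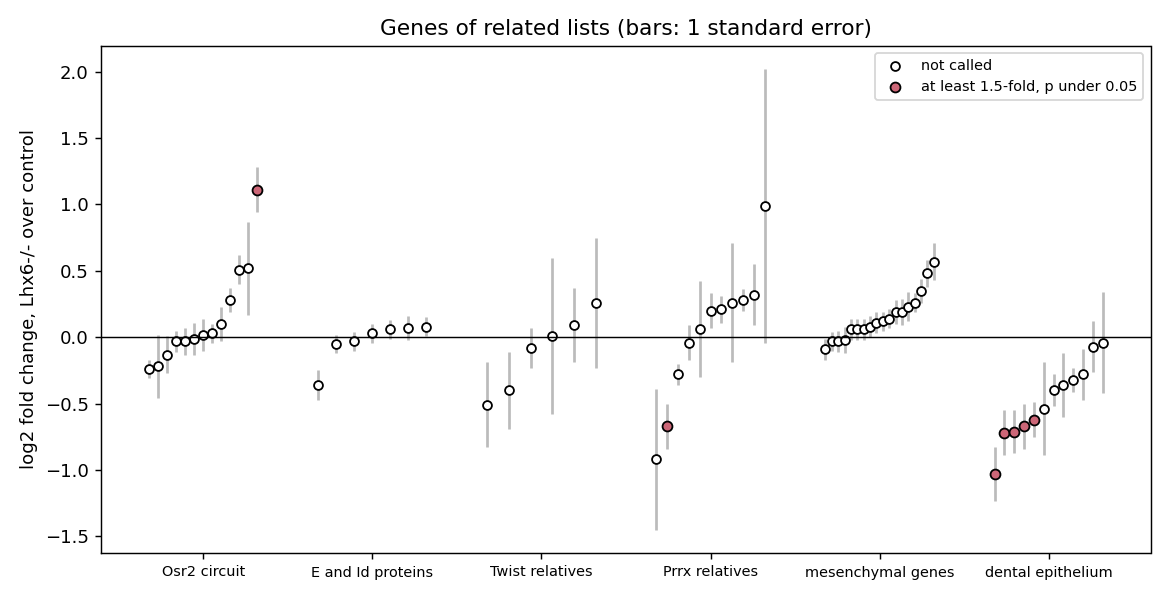
Log2 fold change of Lhx6-/- over control for the tested genes of the 5 lists related to the factors and of the dental epithelium markers, sorted within each list; bars are 1 standard error and filled points met the rule of 1.5-fold and unadjusted p under 0.05. Sfrp2 is the filled point of the Osr2 list, and all 12 epithelial markers lie below 0.

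Markers of some other cell types differed with the genotype as well. Of the 12 epithelial markers, 5 fell by the rule (1.71% of all tested genes), with a median of -0.47 over the list. None was at 0 CPM in any library, and Epcam (-0.07) and Shh (-0.04) barely differed. No marker of enamel-forming cells, odontoblasts, osteoblasts, follicle and periodontal ligament, immune cells, skeletal muscle or Schwann cells met the rule. All 5 odontoblast markers still had a log2 fold change above 0, with a median of 0.09. Groups were apart in 2 of them, with Lhx6-/- higher (7.86% of all tested genes). Among these was Dspp, named after its values were seen (log2 fold change 0.33, adjusted p = 0.199 by edgeR). Among the enamel markers Amtn alone had an adjusted p under 0.05 by edgeR (log2 fold change -0.54). Among the Lhx6-/- libraries the summed epithelial level was 1070, 1130 and 1230 CPM in replicates 1, 2 and 3, and Osr2, Twist2 and Prrx2 were highest in replicate 1 and lowest in replicate 3. An alternative fit held constant the mean log2 CPM of the 12 markers, each weighted alike, and not their sum. The log2 fold change was then 0.80 for Osr2, 0.82 for Twist2 and 0.27 for Prrx2. Neither Osr2 nor Twist2 had an adjusted p under 0.05 in that fit. Both still met the rule of 1.5-fold and unadjusted p under 0.05. Endothelial markers were higher in 7 of 7 cases (summed level 269 to 281 CPM in control, 312 to 364 CPM in Lhx6-/- libraries), and red blood cell markers lower in 5 of 5 (2960 to 3690 and 1590 to 2320 CPM). The 4 Y-linked genes summed to 17.4, 58.0 and 14.6 CPM in the control libraries. In the Lhx6-/- libraries the sums were 55.1, 92.1 and 88.5 CPM, so they differed between pools and were mostly higher in Lhx6-/- tissue. All 4 genes had a log2 fold change above 0, with a median of 1.4. By the rule 1 of them rose, Kdm5d (1.58% of all tested genes), and groups were apart in 2, with Lhx6-/- higher (7.86% of all tested genes). Kdm5d was named after its values were seen. With the mean log2 CPM of these genes held constant, Twist2 stood at 1.62, Osr2 at 1.11 and Prrx2 at 0.57. Beyond these fits the part of tissue makeup or sex in the levels of the 6 factors was not tested.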

How the data were processed

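Per the study's methods, the authors trimmed single-end reads of 75 cycles and aligned them to mm10 with STAR 2.6.1d; the labels also name Partek. The counter, its annotation and its use of strand are not given in the sources used here. The methods name RPKM, but the deposited counts are not divided by length. The authors deposited estimated counts per gene and library, without normalization, and a table of their own comparison (ratios, fold changes, p-values), of which only the gene names, coordinates and the mean, total and maximum of scaled counts were used, to check the gene order (largest relative deviation 3.04e-08 over 23594 genes). Estimated counts were rounded and tested with edgeR 4.0.16 in R 4.3.3 (TMM, filterByExpr, robust quasi-likelihood, genotype alone, two-sided). The biological coefficient of variation was 0.202. CPM are per 1000000 TMM-scaled counts. Libraries are pools of molars with no record of which animals, and p-values measure the spread between 3 libraries per group.

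The members and the lists were chosen with earlier results of these data known. Genes named beside the members were Lhx6, list genes that met either rule, the 2 most abundant genes of each list and the 3 genes most correlated with each member, plus those marked as named after their values were seen; some list genes are not reported here. The list gene Drgx is Prrxl1 in the table. Alternatives were upper-quartile scaling, DESeq2 1.42.0, limma-trend (limma 3.58.1, prior counts 2 and 0.5), no filter or at least 10 counts in every library, a replicate block, Y-linked and epithelial covariates and leaving out each library. The code was tested on simulated counts. Promoters are RefSeq sequences (GRCm38.p6), and coordinates are 1-based.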

Additional observations from a re-analysis of the deposited data

How the results depend on the processing

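All 6 factors had a log2 fold change above 0 in all 15 alternative fits, with ranges of 0.12 to 0.28 for Osr1, 0.80 to 1.11 for Osr2, 0.15 to 0.23 for Twist1, 0.82 to 1.62 for Twist2, 0.14 to 0.21 for Prrx1 and 0.27 to 0.57 for Prrx2. Osr2 and Twist2 had an adjusted p under 0.05 in 14 of the 15, the exception being the epithelial covariate, and Prrx2 only by DESeq2. Genes with an adjusted p under 0.05, 81 in the reported fit, numbered 298 by DESeq2, 372 with the Y-linked covariate, 24 with the epithelial covariate and 12 to 127 when each library was left out in turn (12 without control replicate 3, 20 without Lhx6-/- replicate 2, 31 without Lhx6-/- replicate 1 and 127 without control replicate 1). Genes at 1.5-fold with an unadjusted p under 0.05, 660 in the reported fit, numbered 1241 with the Y-linked covariate and 607 to 968 when each library was left out. The cause of these shifts was not tested.

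With the Y-linked covariate, 2 genes of the Osr2 list (Sfrp2 and Pax9), 2 of the Prrx relatives and 3 of the mesenchymal genes (Snai1, Foxc2 and Pdgfrb) met the rule, and with the epithelial covariate 1 of the Twist relatives (Hand2) did; the genes named here were chosen after their values were seen. Leaving out each library gave 0 to 1 gene among the Prrx relatives, with 0 without Lhx6-/- replicate 1, and 0 to 1 (Foxc2) among the mesenchymal genes. With the replicate number as a block, 134 genes had an adjusted p under 0.05; the numbers are those of the sample titles, and the count table numbers the same Lhx6-/- libraries 2, 3 and 4. The study's methods mention 3 pairs of samples, but which libraries form a pair is not given in the sources used here. Deviations of libraries with the same title number correlated at 0.026, -0.029 and -0.031. Those with the same number in the table correlated at -0.062 and -0.006. Neither numbering shows a pairing by these values, but with 3 libraries per group they cannot show that pairing is absent. Precision is limited by 3 libraries per group.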
